A study of Macaca mulatta with 10 samples.

Results

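Toll-like receptors and the proteins that hand endotoxin to them were followed in liver RNA of rhesus macaques (Macaca mulatta). The members were 10 genes chosen by symbol, namely TLR1 to TLR6 of the receptor family, CD14, LY96 (MD-2), LBP and MYD88. Of these, 9 had a probe set annotated with that symbol alone, 12 probe sets in all, among 24969 probe sets with 1 symbol and 52865 on the array. No probe set was paired with MYD88, which is not analysed here, and none of those with several symbols held a member. The study set livers of 5 brain-dead donors against livers of 5 living donors, with 1 one-colour array each. Brain-dead animals had a catheter balloon inflated outside the dura, and fluid with vasopressin, dopamine or both held their blood pressure. The sample labels give 6 h of brain death and the series' design text gives 5 h. Living donors were sedated, anaesthetised and ventilated for 1 h before recovery, so agents and time under ventilation cannot be told apart from brain death. The brain-dead group held 2 females and 3 males of 7 to 18 years, with 1 age not given. The control group held 3 females and 2 males of 4 to 20 years. Per the labels, livers were recovered after an in situ flush with preservation solution.

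Endotoxin, the lipopolysaccharide of Gram-negative bacteria, is taken up in blood by LBP, a protein that hepatocytes secrete. LBP passes it to CD14 on myeloid cells, and CD14 loads it onto LY96, which sits on the outer part of TLR4. TLR4 then recruits adaptors, MYD88 among them, that lead to NF-kB and inflammatory cytokines. The liver drains the gut through the portal vein, and its Kupffer cells are known for clearing endotoxin from that blood. TLR2 pairs with TLR1 or TLR6 to sense bacterial lipoproteins, TLR5 senses flagellin, and TLR3 senses double-stranded RNA inside endosomes.

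Array medians lay between 175 and 227 signal units, and precision is limited by there being 10 arrays. On the second principal component, brain-dead animal 1 and control animal 1 lay far from the rest, both on the same side. They were at 72.1 and 69.6, against at most 36.1 in size for the others. Values without these animals are therefore given where a call turns on them. The tissue label was checked against hepatocyte genes. Haptoglobin (HP), SERPINA1 and FGA had mean signals of 124553, 122368 and 118758 in brain-dead and 136434, 137093 and 130718 in control livers. ALB, TTR, TF, CYP2E1 and ASGR1 of the same list were not measured above the filter or are not named on the array.

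None of the members passed the test between brain-dead and control livers. Of the 9 genes, 8 had a probe set that cleared the filter on dim signals, a signal over the array median on 5 or more of the 10 arrays. Group differences were tested with limma, and p was adjusted by the Benjamini-Hochberg method over all probe sets tested (limma adjusted p). None of the 8 genes (0 of 8) had a limma adjusted p under 0.05, where 6.77% of the 9835 genes tested did, 2.9% higher and 3.87% lower in brain-dead livers. Nor did any of the 9 probe sets of these genes, where 6.1% of all probe sets did. At an unadjusted limma p under 0.05 there were 3 of 8, TLR6, TLR2 and LBP, against 25.1% of all genes, and at an adjusted p under 0.1 there were 2, TLR6 and TLR2, against 12.7%. TLR6 was the member nearest the threshold. Its signal was lower in every brain-dead liver than in every control liver, and it was the 1 member of 8 whose groups did not overlap (7.8% of all genes tested, and 4.15% with the brain-dead group lower). TLR2, LBP and TLR4 had higher means in brain-dead livers, while CD14, LY96, TLR1 and TLR3 had log2 changes between -0.19 and -0.01. The median log2 change of the 8 genes was -0.03, against -0.01 for all genes tested. Their median size of change without sign was 0.34, against 0.35 for all genes. In bulk tissue, fewer cells of a type and less RNA per cell cannot be told apart. Levels of cell type markers in the same livers are given further on.

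**Figure D1:**
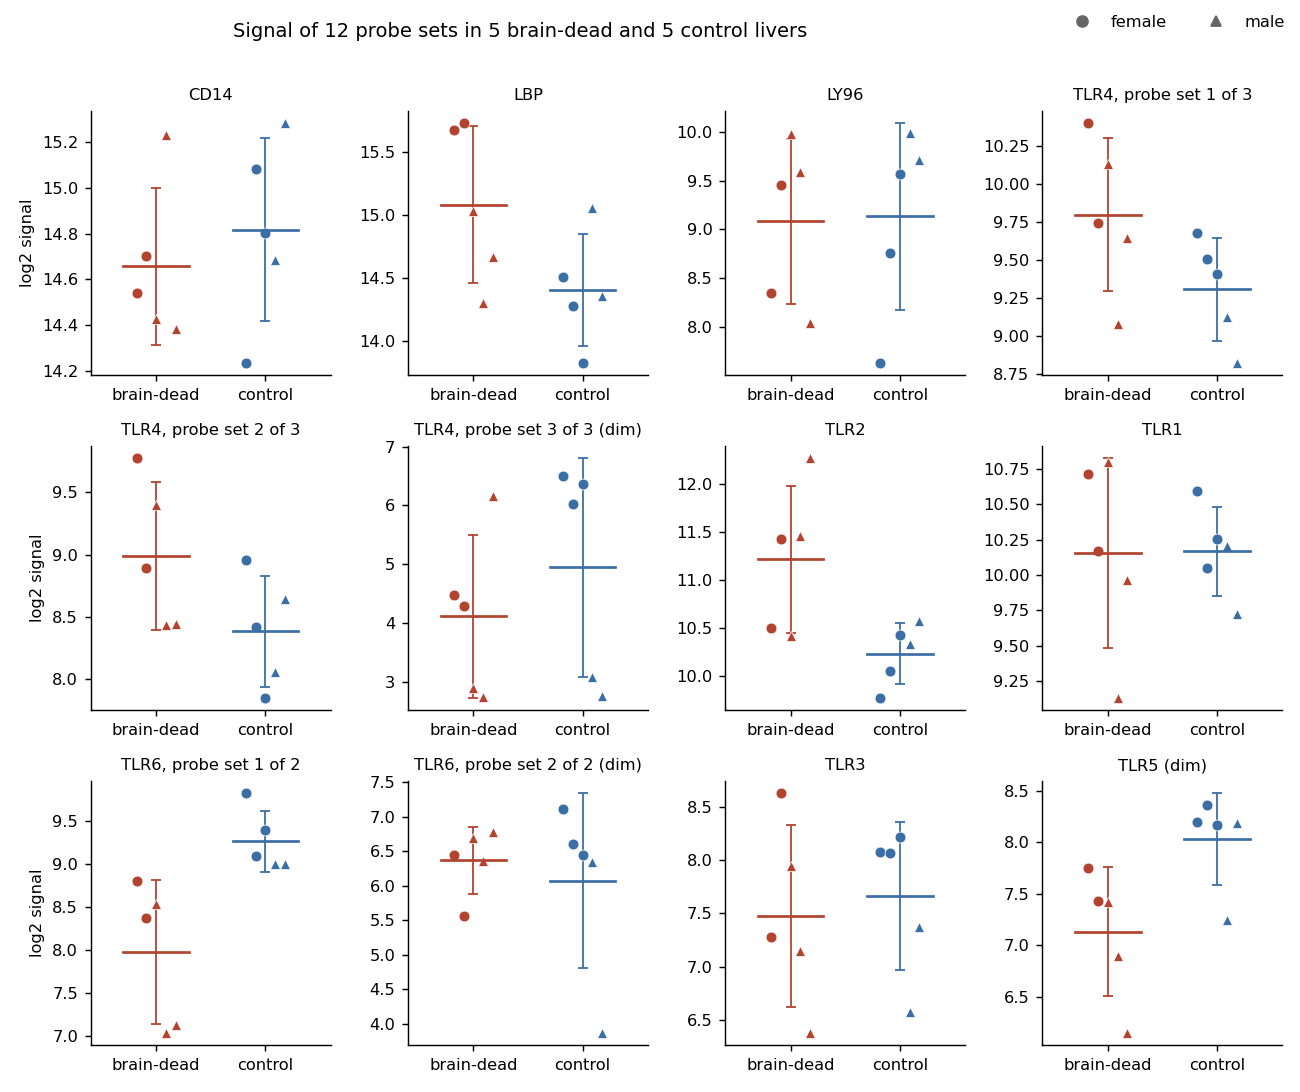
Log2 signal of each of the 12 probe sets, one panel each, in brain-dead (left) and control (right) livers, with circles for females, triangles for males, and bars for the mean and SD (n = 5 per group). TLR6 probe set 1 is the panel in which the groups stand apart, while CD14, LY96, TLR1 and TLR3 overlap throughout, and panels marked dim lay below the filter.

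**Figure D2:**
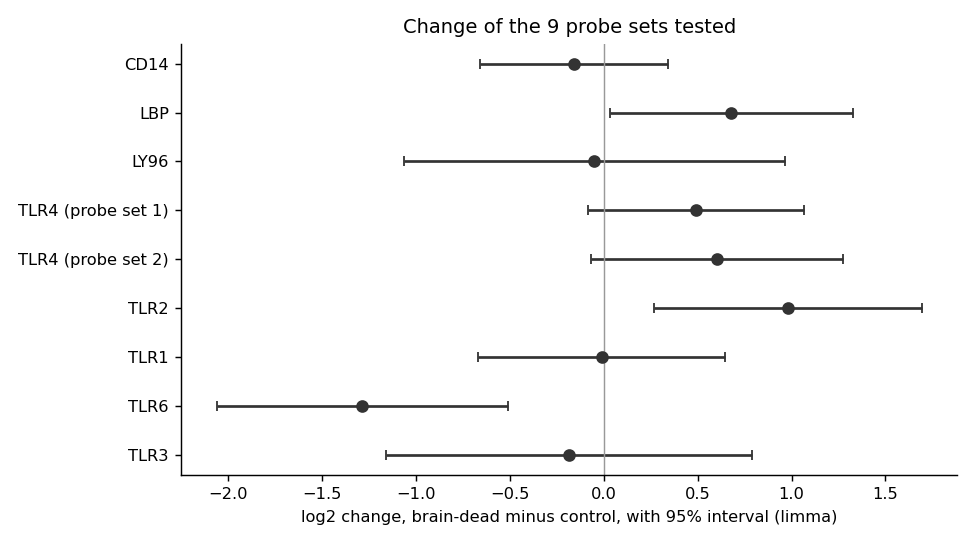
Log2 change of brain-dead minus control livers with its 95% interval (limma, n = 5 per group) for the 9 probe sets tested. The intervals of TLR6, TLR2 and LBP exclude 0, but none of the 9 passed after adjustment over all probe sets.

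LBP, the plasma carrier of endotoxin, had signals of 52327, 54289, 33547, 20202 and 26023 in brain-dead animals 1 to 5, against 23253, 19904, 14497, 34031 and 20921 in control animals 1 to 5. Brain-dead animals 1 and 2 stood above all controls, and the other 3 lay within the control range. The log2 change was 0.68 ± 0.30 (SE, n = 5 per group), or 1.60-fold with a 95% interval of 1.02 to 2.51-fold, and did not pass (limma adjusted p = 0.192).

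CD14, the co-receptor that receives endotoxin from LBP, had signals of 23853, 26694, 22012, 38472 and 21358 in brain-dead animals 1 to 5, against 19255, 34699, 28601, 26354 and 39899 in control animals. All 5 brain-dead values lay inside the control range, and CD14 varied by 2.07-fold over all 10 livers. Brain-dead minus control was, in log2 units, -0.16 ± 0.23 (SE), and its interval ran from 0.632 to 1.27-fold (limma adjusted p = 0.722). A change of 2-fold in either direction lies outside that interval.

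LY96, the endotoxin-binding partner of TLR4, varied by 5.15-fold over all 10 livers. It had signals of 325, 703, 1008, 771 and 262 in brain-dead animals 1 to 5, against 197, 434, 761, 1016 and 839 in control animals 1 to 5. The groups covered nearly the same span, and low and high livers occurred in both. The log2 change was -0.05 ± 0.47 (SE), with an interval of 0.477 to 1.95-fold that takes in changes close to 2-fold both ways (limma adjusted p = 0.963).

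TLR4, the signalling receptor for endotoxin, had 3 probe sets. The brightest gave 1354, 858, 1122, 541 and 803 in brain-dead animals 1 to 5, against 822, 728, 681, 558 and 453 in control animals. Brain-dead animals 1, 2 and 3 stood above all controls, and the other 2 lay within the control range. It had a log2 change of 0.49 ± 0.27 (SE), or 1.41-fold with an interval of 0.944 to 2.09-fold, and did not pass (limma adjusted p = 0.285). The second TLR4 probe set gave 877, 476, 676, 347 and 349 in brain-dead animals, against 497, 343, 231, 266 and 401 in control animals. It had a log2 change of 0.60 ± 0.31 (SE) in the same direction and did not pass either (limma adjusted p = 0.260). The third was below its array's median on all 10 arrays, at 6.7 to 71.5 in brain-dead and 6.8 to 90.5 in control livers. With the mean of the log2 signals of all 3 probe sets, the dim one included, the log2 change of TLR4 was 0.09, against 0.49 with the brightest alone.

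TLR2, the lipoprotein receptor, had signals of 1449, 2755, 1367, 2800 and 4924 in brain-dead animals 1 to 5, against 873, 1063, 1379, 1287 and 1518 in control animals 1 to 5. Brain-dead animals 2, 4 and 5 stood above all controls, while animals 1 and 3 lay within the control range. TLR2 averaged 2659 ± 1440 in brain-dead and 1224 ± 257 in control livers (SD, n = 5 each). Brain-dead minus control was, in log2 units, 0.98 ± 0.33 (SE), or 1.98-fold with an interval of 1.20 to 3.24-fold (limma adjusted p = 0.0952).

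TLR6, a partner of TLR2, had a brighter probe set with signals of 447, 332, 372, 131 and 140 in brain-dead animals 1 to 5. Control animals 1 to 5 had 905, 546, 675, 513 and 511. The highest brain-dead value lay below the lowest control value, and brain-dead animals 4 and 5 were well below the other 3. The log2 change was -1.29 ± 0.36 (SE), a signal 2.44-fold lower in brain-dead livers with an interval of 1.42 to 4.18-fold (limma adjusted p = 0.0515, unadjusted p = 0.00326). By unadjusted p this probe set was at place 1685 of 26653. It was above the array median on 3 brain-dead and all 5 control arrays, so its place in the test rests in part on the group in which it is higher.

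The value of TLR6 sat at the threshold, and 8 of 23 alternatives put it past. Among them were quantile normalization, arrays centred on their medians, adding 16 or 64 to each signal, and the replicate block (limma adjusted p = 0.0388, 0.0439, 0.0490, 0.0444 and 0.0189). Array weights, sex with age as covariates, and leaving out brain-dead animal 1 also did so (limma adjusted p = 0.0359, 0.0400 and 0.0341). Every fit with age lacks brain-dead animal 3, whose age is not given, so it differs in its animals as well as in its covariates. Over all its alternatives the adjusted p ranged from 0.0189 to 0.461. The highest came from averaging TLR6 with its other probe set, which lay below the array median on all 10 arrays. That dim probe set gave 47.2 to 109 in brain-dead and 14.6 to 139 in control livers, and averaging with it brought the log2 change to -0.50. TLR1 and TLR6 are close paralogues, and whether their probe sets bind each other's transcripts was not tested.

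**Figure D3:**
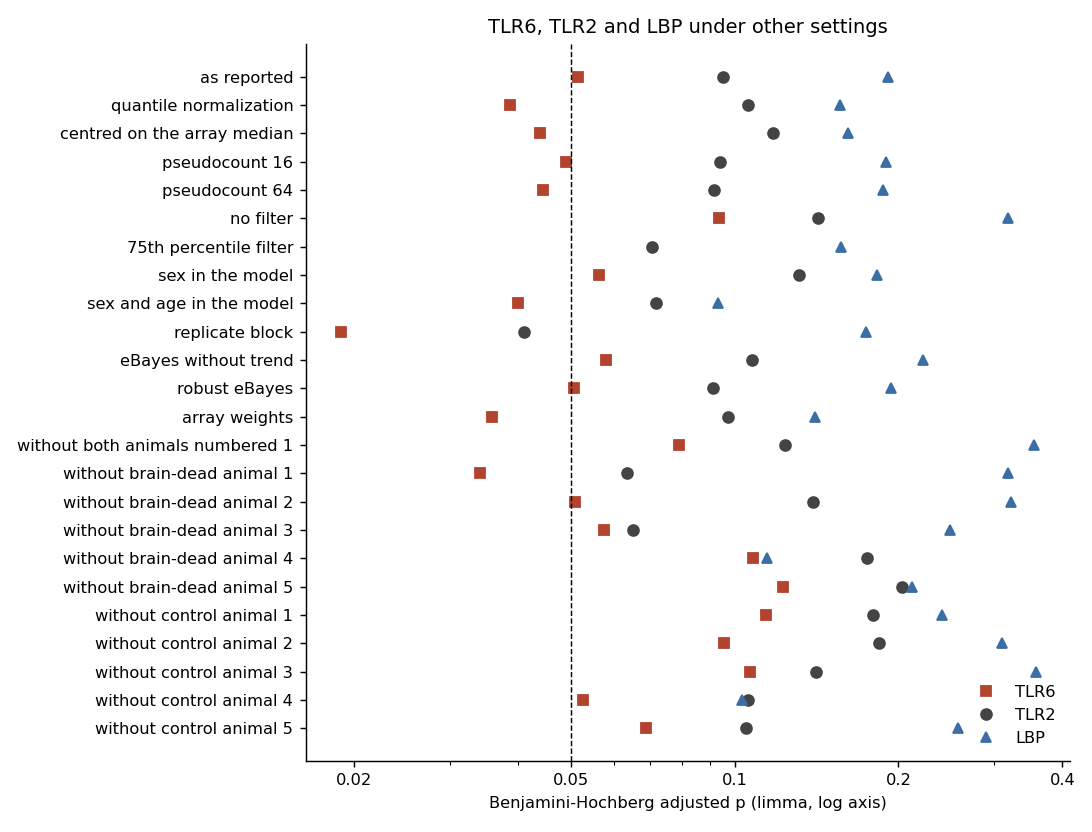
Benjamini-Hochberg adjusted p (limma, log axis) of TLR6, TLR2 and LBP as reported and under each other setting, with the dashed line at 0.05. TLR6 falls on both sides of the line, TLR2 passes only with the replicate block (0.0410), and LBP passes in no setting. TLR6 has no value at the 75th percentile filter, which it does not clear.

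TLR1, the other partner of TLR2, had signals of 1679, 1152, 1780, 560 and 999 in brain-dead animals 1 to 5, against 1545, 1058, 1225, 1183 and 847 in control animals 1 to 5. Brain-dead animals 1 and 3 were the 2 highest livers and brain-dead animal 4 the lowest, so the brain-dead values spanned the whole control range. Brain-dead minus control was, in log2 units, -0.01 ± 0.30 (SE), with an interval of 0.629 to 1.56-fold (limma adjusted p = 0.988). The SD of log2 signal was 0.67 in brain-dead and 0.32 in control livers.

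TLR3 and TLR5 were near the array medians. TLR3, the sensor of double-stranded RNA, gave 155, 395.5, 246, 142 and 83.2 in brain-dead animals 1 to 5, against 270, 268, 297, 95.4 and 165 in control animals. The groups overlapped, and the log2 change of -0.19 ± 0.45 (SE) did not pass (limma adjusted p = 0.845). TLR5, the flagellin receptor, gave 215, 173, 172, 119 and 70.8 in brain-dead animals 1 to 5, against 294, 329, 289, 151 and 291 in control animals. Of the controls, 4 stood above all brain-dead animals, and control animal 4 lay among the brain-dead values. TLR5 was above the array median on 0 brain-dead and 4 control arrays and so fell below the filter. With no filter its log2 change was -0.90 ± 0.37 (SE) and did not pass over the 52766 probe sets then tested (limma adjusted p = 0.244, unadjusted p = 0.0281).

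The sexes were unequally divided between the groups, and the change of each member was therefore set out for females and males. LBP averaged 53308 in the 2 brain-dead females and 19218 in the 3 control females. It averaged 26591 in the 3 brain-dead males and 27476 in the 2 control males. The log2 change was 1.50 ± 0.32 in females and -0.04 ± 0.32 in males (SE), a male minus female difference of -1.53 ± 0.45 with an unadjusted limma p of 0.00587. That difference did not pass over all probe sets (limma adjusted p = 1.00), and neither did the change within females (limma adjusted p = 0.0554). Over its 20 alternatives the LBP difference ran from -1.89 to -1.18, and without both animals numbered 1 it was -1.71. Without brain-dead animal 1 or 2, that group holds 1 female, who is assumed to vary like the others. Of the 9 member probe sets, LBP was the 1 with an unadjusted interaction p under 0.05, where 3.81% of all probe sets had one and 0 of 26653 passed after adjustment. TLR6 had log2 changes of -0.85 ± 0.45 in females and -1.43 ± 0.45 in males (SE), and TLR2 had 0.88 ± 0.49 and 0.93 ± 0.49 for females and males. The male minus female difference was -0.58 ± 0.64 for TLR6 and 0.05 ± 0.69 for TLR2 (SE), and neither passed (limma adjusted p = 1.00 for both).

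**Figure D4:**
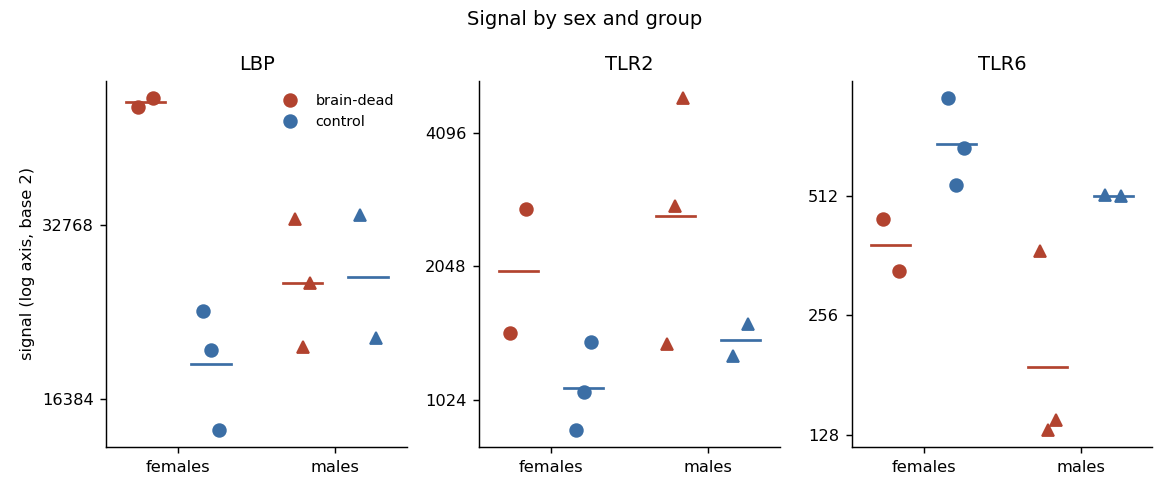
Signal (log axis) of LBP, TLR2 and TLR6 in brain-dead (left of each pair) and control animals, for females (circles) and males (triangles), with lines at geometric means. Both brain-dead females exceed every control for LBP, while brain-dead and control males overlap.

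The genes whose signal most resembled a member over the 10 livers were sought among the other 9834 genes tested, by Pearson correlation of log2 signal and as a description only. The arrays share their group differences and their scaling, and the largest of so many correlations is high by choice. For TLR2 it was GBP2, an interferon-induced GTPase (r = 0.96, Spearman 0.71), followed by SLC44A2 (0.94) and PROCR (0.93), the endothelial protein C receptor. GBP2 was 2.23 higher in brain-dead livers on the log2 scale (limma adjusted p = 0.0346). TLR4 was most like the chemokine receptor CCR1 (0.94), then OLFM1 (0.91) and RBSN (0.90). LBP was most like CAAP1 (0.92), SLC37A3 (0.92) and the transcription factor ETV6 (0.89). CD14 was most like HSD17B8 (0.89), USP35 (0.88) and MECR (0.87), an enzyme of mitochondrial fatty acid synthesis. Of these 12 genes, GBP2 was the 1 that passed the test between the groups.

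Related genes, called pathway genes here, were taken from 6 lists of 110 symbols, which include older names of some genes. Not all are genes of endotoxin sensing, and 76 were measured. Among them 7 were higher, 2 lower and 67 did not pass, or 11.8% called against 6.77% of all genes. The median log2 change of the 76 was 0.13, against -0.01 for all genes. The lists were chosen with earlier results of these data known, so these comparisons are descriptions and do not test the lists. The cytokines made by cells that sense endotoxin held 4 of the 7 higher genes, and 8 of the 12 measured did not pass. The median log2 change of the 12 was 0.73, with 10 above 0 and 2 below. TNF, CCL4, CXCL1, CXCL2, IFNB1, IL12B, IL1A and PTGS2 of that list were below the filter or not named on the array. CCL20, the chemokine that draws CCR6-bearing cells, gave 494, 16606, 5994, 3284 and 2535 in brain-dead animals 1 to 5, against 312, 304, 431, 384 and 936 in control animals. Brain-dead animals 2 to 5 stood above all controls and animal 1 among them. Its log2 change was 2.95 ± 0.70 (SE, limma adjusted p = 0.0283), a call lost without brain-dead animals 3, 4 or 5 or control animals 1, 2 or 3 singly, and in the fit with sex and age, which also lacks brain-dead animal 3 (limma adjusted p from 0.0566 to 0.0732). IL1B, CCL2 and IL6 were the other 3, at 2.25, 2.33 and 2.36 on the log2 scale. The calls of IL1B and CCL2 held in all 23 alternatives, and that of IL6 was lost in 6 of 22, with a limma adjusted p of up to 0.0588, and of 0.0526 with animal 1 of each group left out. The other IL6 probe set had a log2 change of 1.58 and did not pass (limma adjusted p = 0.0594). In control animals 1, 2 and 5 the brighter IL6 probe set lay below the array medians of 206, 227 and 188. Its place in the test thus rests in part on the group in which it is higher.

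Among the adaptors and kinases that carry the TLR4 signal, 1 of 13 measured was higher, none was lower, and the median log2 change was 0.12. Over all genes tested 6.77% passed, 2.9% higher and 3.87% lower. The calls in this list and in those below it are too few to set apart from that share. The higher gene was IRAK2, a kinase of the MYD88 complex, with 2158, 1778, 1682, 948 and 1912 in brain-dead animals 1 to 5 and 673, 618, 605, 1030 and 1110 in control animals. All brain-dead animals but animal 4 stood above the controls. Brain-dead minus control was, in log2 units, 1.07 ± 0.27 (SE, limma adjusted p = 0.0359), a call lost under 11 of 23 alternatives. These were no filter, a covariate for sex, the fit with sex and age that lacks brain-dead animal 3, leaving out both animals numbered 1, and leaving out brain-dead animals 1, 2, 3 or 5 or control animals 1, 2 or 3 singly (limma adjusted p from 0.0508 to 0.127). A further IRAK2 probe set had a log2 change of 1.69 that did not pass. TIRAP, which bridges MYD88 to TLR4, had a log2 change of -0.45, the adaptor TICAM1 (TRIF) had 0.55 and the ubiquitin ligase TRAF6 had 0.02, none past the test.

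Among brakes on TLR signalling, 1 of 15 was higher, 1 was lower and 13 did not pass, with a median log2 change of -0.03. SARM1, a TIR-domain protein known in human cells to restrain TRIF signalling, gave 687, 939, 776, 1141 and 1500 in brain-dead animals 1 to 5, against 467, 390, 182, 36.8 and 169 in control animals. No brain-dead value fell within the control range. In control animals 3, 4 and 5 it lay below the array medians of 217, 184 and 188. The place of SARM1 in the test thus rests in part on the group in which it is higher. Without single animals its log2 change ran from 1.83 to 2.74. The log2 change was 2.40 ± 0.55 (SE, limma adjusted p = 0.0252), lost without brain-dead animals 4 or 5 or control animal 3, and in the fit with sex and age that also lacks brain-dead animal 3 (limma adjusted p = 0.0559, 0.0673, 0.0546 and 0.0540). ZFP36, which promotes decay of cytokine transcripts, fell by 2.16 ± 0.40 on the log2 scale (SE, limma adjusted p = 0.0110). Its signal averaged 438 ± 99.0 in brain-dead and 2258 ± 1209 in control livers (SD, n = 5 each), and the groups did not overlap. The call of ZFP36 was lost with animal 1 of each group left out (limma adjusted p = 0.0512). IRAK3, the kinase-dead brake that macrophages make after endotoxin, had a log2 change of 1.08 ± 0.34 (SE) and did not pass (limma adjusted p = 0.0738).

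Of 14 other innate sensors and their partners, 1 was higher, none was lower, and the median log2 change was 0.27. It was RIPK2, the kinase that serves the peptidoglycan sensors NOD1 and NOD2, with 2906, 3066, 1710, 1978 and 3830 in brain-dead animals 1 to 5. Control animals 1 to 5 had 906, 939, 1004, 1024 and 1061. Every brain-dead liver stood above every control, and the controls lay close together (SD 63.4). Brain-dead minus control was, in log2 units, 1.39 ± 0.24 (SE, limma adjusted p = 0.00732), and the other probe set of RIPK2 rose by 1.29 (0.0160). The call held in all 23 alternatives, without both animals numbered 1 among them. NOD1, NLRP3 and CASP4 had log2 changes of 0.09, 0.87 and 1.44, none past the test (limma adjusted p = 0.856, 0.0614 and 0.0727). Of the 14 measured, 11 had a change above 0 and 3 below. NOD2 and CASP1 were below the filter or not named on the array.

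Of 10 measured genes in the list of other Toll-like receptors, their chaperones and partners, none was higher and 1 was lower, with a median log2 change of -0.11. The lower one was neither a receptor nor a chaperone but RNF170, a ubiquitin ligase known in human cells to act on TLR3, with 635, 1157, 962, 693 and 420 in brain-dead animals 1 to 5, against 3789, 2328, 2877, 1134 and 1277 in control animals. Brain-dead animal 2 lay just inside the control range and the other 4 below it. RNF170 had a log2 change of -1.50 ± 0.36 (SE, limma adjusted p = 0.0311). Its call was lost without brain-dead animals 1, 4 or 5 or control animals 1, 2 or 3 singly, and with animal 1 of each group left out (limma adjusted p from 0.0561 to 0.110). Its other probe set had a log2 change of -0.55 that did not pass. TLR7, TLR8 and TLR9, receptors for nucleic acids, had log2 changes of -0.10, 0.84 and 0.49, none past the test (limma adjusted p = 0.781, 0.101 and 0.439). Of 12 genes of endotoxin binding and clearance none passed, and the median log2 change was -0.23. The lowest adjusted p was that of CD36, a scavenger receptor, which had 10474 ± 4221 in brain-dead and 21806 ± 9210 in control livers (SD, n = 5 each) and a log2 change of -1.05 ± 0.31 (SE, limma adjusted p = 0.0629). CD36 passed in 6 of 23 alternatives, over which its limma adjusted p ran from 0.00865 to 0.149.

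**Figure D5:**
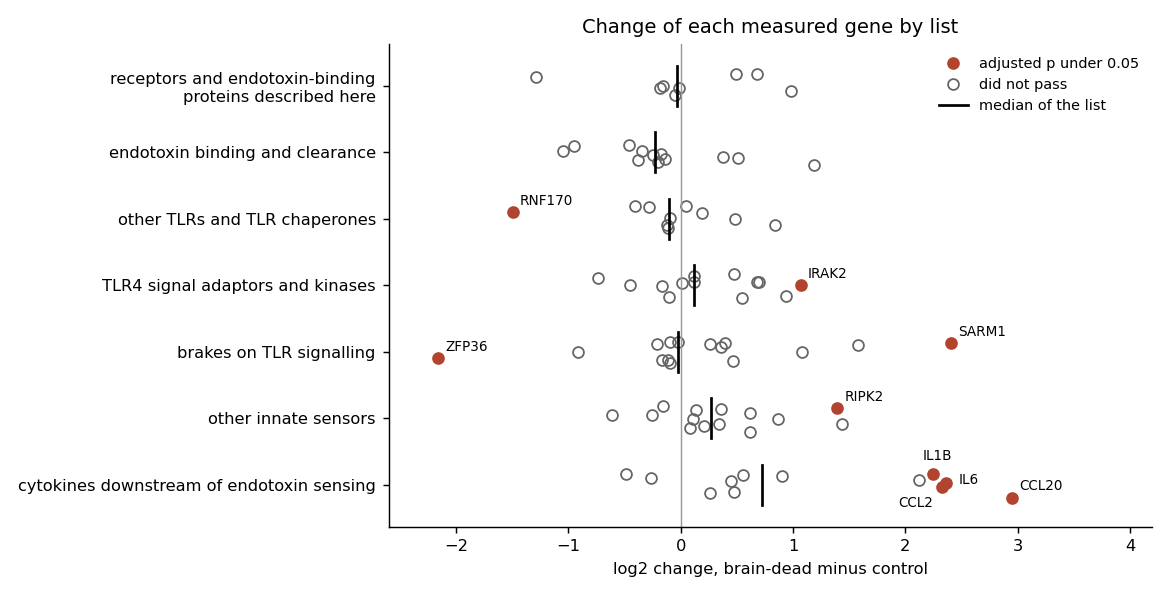
Log2 change of brain-dead minus control livers for each measured gene of 7 groups, with filled points for an adjusted p under 0.05 and a line at each group's median. The 8 receptors and endotoxin-binding genes have no filled point, and the cytokine list has the highest median, 0.73.

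Several members are made by myeloid cells, so the levels of cell type markers are given beside them. Of 11 measured Kupffer cell and macrophage markers none passed, 10 had a change below 0, and the median log2 change was -0.39. Their summed signal ran from 36452 to 98977 in brain-dead and from 67152 to 104767 in control livers. The brightest were the complement genes C1QA, C1QB and C1QC, with log2 changes of -0.33, -0.13 and -0.18. CD163, ADGRE1, SPI1 and CLEC4F were below the filter or not named on the array. Of 8 measured neutrophil markers 2 were higher, S100A9 and S100A8, calcium-binding proteins that monocytes are also known to make. Their log2 changes were 3.54 ± 0.63 and 3.85 ± 0.74 (SE, limma adjusted p = 0.00911 and 0.0128), and the list's median log2 change was 0.97. Its summed signal ran from 11343 to 58478 in brain-dead and from 2292 to 7584 in control livers, with no overlap. S100A8 and S100A9 gave most of that sum in each brain-dead liver, so it largely restates their calls. CAMP, MMP9 and CSF3R of that list had log2 changes of 1.19, 1.69 and 0.76 (limma adjusted p = 0.0734, 0.170 and 0.195). FCGR3 had 0.05 (limma adjusted p = 0.954), and ELANE and FPR1 had -0.38 and -0.26. None of these 6 passed, and of the 8 measured, 6 had a change above 0 and 2 below. Defining neutrophil genes, among them MPO, CXCR1, CXCR2, FCGR3B, MMP8 and CEACAM8, were below the filter or not named on the array. Brain-dead animal 5 had the highest S100A8 and S100A9 (23242 and 32408) and the highest TLR2. Brain-dead animal 3, second in S100A8 and S100A9, had the lowest TLR2 of its group (1367). Brain-dead animal 1, with the lowest S100A8 and S100A9 of its group (3106 and 3796), had a TLR2 signal of 1449, next above that of animal 3. Whether TLR2 follows these 2 genes was not tested. Of 5 measured monocyte markers none passed (median log2 change 0.27), and the sum ran from 13843 to 18337 in brain-dead and from 5274 to 16180 in control livers. LYZ, FCN1 and VCAN of that list had log2 changes of 0.49, 0.27 and 1.62 (limma adjusted p = 0.463, 0.657 and 0.0549), and the other 2, ITGAM and CLEC12A, had -0.95 and -0.76 (limma adjusted p = 0.123 and 0.264). Of 10 endothelial markers none passed and 9 had a change below 0, with a median of -0.40 and a sum of 20446 to 34821 in brain-dead and 23362 to 43234 in control livers. PECAM1, STAB1 and CLEC4G of that list had log2 changes of -0.76, -0.25 and -0.35. The largest fall in the list was that of VWF, at -1.86 (limma adjusted p = 0.0953). Of 9 hepatocyte markers none passed and all had a change below 0, with a median of -0.18. Their sum ran from 726970 to 834766 in brain-dead and from 793846 to 1002320 in control livers. The part of these cell markers in the values of TLR2, TLR6, LBP and the other members was not tested.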

How the data were processed

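Each array's deposited values were linear intensities by probe set, for which the submitters' processing notes name MAS5 (no version is given). The values as deposited by the authors had a trimmed mean of about 1000 on every array. The deposited intensities were put on a log2 scale with no pseudocount or further normalization. After 99 control probe sets were left out, 26653 probe sets above their array's median on at least 5 of 10 arrays were tested with limma 3.58.1 in R 4.3.3 (lmFit, eBayes with trend, group alone), with Benjamini-Hochberg adjustment over all of them and a threshold of 0.05. Matplotlib 3.10.9 in Python 3.11.15 drew the plots. Genes were named from the platform annotation, with current symbols through the gene ID, and represented by their probe set with the highest mean. A sex interaction was fitted on the same values. The fit was tested on simulated data. Errors marked SE are limma's.

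The members and gene lists were chosen with earlier results of these data known. Named genes were all members, up to 4 genes past the threshold in each pathway list (otherwise the one with the lowest adjusted p), up to 3 similar genes for CD14, LBP, TLR2 and TLR4, and the brightest markers of each list, of which those of T and NK, B, stellate and bile duct cells are described in the closing section. TIRAP, TICAM1, TRAF6, IRAK3, NOD1, NLRP3, CASP4, TLR7, TLR8, TLR9, ITGAM, CLEC12A, ELANE and FPR1 were named outside that rule, after their values were seen. So were CAMP, MMP9, CSF3R, VWF, CD8A and CD4. Replicate numbers name animals, and p-values set the group difference against the spread between these livers. The alternatives tried were other normalizations, pseudocounts, filters, covariates, variance models and thresholds, a replicate block, and leaving out arrays.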

Additional observations from a re-analysis of the deposited data

Results flagged for a closer look

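Among 24 sets of 5 values (12 probe sets in 2 groups), 2 held an animal far from the other 4, where chance gives about 5% of sets. TLR5 in control animal 4 was 151, against 289 in the nearest control, and its gap made up 0.831 of the group's range on the log2 scale. The dim TLR6 probe set in control animal 5 was 14.6, against 80.8 in the nearest control, a gap of 0.760 of the range. Both probe sets lay below the filter, so neither was among the 26653 probe sets tested. They entered only the fit with no filter and, for TLR6, the mean of its probe sets. No difference between females and males in the change of a member passed after adjustment.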

How the results depend on the processing

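The count of members past the threshold was 0, and it was 1 (TLR6) with quantile normalization, centring on the median, a pseudocount of 16 or 64, sex and age in the model, or array weights. With the replicate block it was 2, TLR6 and TLR2 (limma, Benjamini-Hochberg adjusted p = 0.0189 and 0.0410), and 2 at an adjusted p under 0.1. Leaving out single animals gave 0 to 1, the 1 (TLR6) without brain-dead animal 1. With no filter, the 75th percentile filter, sex alone, either other eBayes setting, the mean of a gene's probe sets, 2-fold, an adjusted p under 0.01, or without both animals numbered 1 it stayed 0. The count of pathway genes was 9, and 2 and 15 at adjusted p under 0.01 and 0.1, 14 with the block, 5 without both animals numbered 1, and 4 to 11 without single animals. The lower of these counts, 4 and 5, came without brain-dead animal 5 and without control animals 1, 2 or 3. Over all probe sets 1627 passed. This was 255 and 3138 at adjusted p under 0.01 and 0.1, 1056 with no filter, 1035 with sex and age (a fit that also lacks brain-dead animal 3, whose age is not given), 3013 with the block, 674 without both animals numbered 1, and 660 to 2289 without single animals, with 660 to 892 without brain-dead animals 3, 4 or 5 or control animals 1, 2 or 3. The cause of these shifts was not tested. The labels do not say what the numbers share, and they were not taken as a pairing: deviations of same-numbered livers correlated at 0.06 to 0.38, over 0.1 for 3 of 5 pairs, and 2 of 5 brain-dead livers correlated best with their own number.

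The probe sets of CD14, LBP, TLR2, TLR4 and TLR6 that cleared the filter kept their direction under every alternative, and no called value changed sign. With no filter, the dim probe sets of TLR4 and TLR6 went the other way, at -0.83 ± 0.91 and 0.29 ± 0.58 (SE). Neither passed (limma adjusted p = 0.732 and 0.868). Changes near 0 did change sign. TLR1 had 0.0027, 0.056 and 0.0688 with quantile normalization, centring and sex in the model, and -0.17 to 0.24 without single animals. LY96 had 0.00053, 0.017 and 0.0229 with quantile normalization, centring and array weights, and -0.43 to 0.21 without single animals. TLR3 had 0.0089 with sex in the model, and -0.47 to 0.0886 without single animals. No alternative put a sex interaction of a member past the threshold. Signal near the array median limits TLR3, TLR5 and TLR6.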

Other observations

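Other cell types that a liver sample can hold showed no marker past the test in either direction. Of 6 measured T and NK cell markers none passed, with a median log2 change of 0.24 and a summed signal of 12782 to 20054 in brain-dead and 10511 to 12892 in control livers. KLRD1, a receptor of NK cells, had the highest signal of that list. It averaged 13002 in brain-dead and 7847 in control livers (limma, Benjamini-Hochberg adjusted p = 0.0549). KLRD1 gave most of the summed signal in every liver, so the sum largely restates that gene. The cytotoxic granule genes GZMB and GNLY followed (log2 changes of 0.48 and 0.30), while CD8A and CD4 had -0.25 and -0.13. Of the 6 measured, 4 had a change above 0 and 2 below. CD3D, CD3E, CD3G, CD2, CD247 and PRF1 were below the filter or not named on the array. The lists of B and plasma cells, stellate cells and bile duct cells had 2, 4 and 3 measured genes, none of which passed, with median log2 changes of -0.36, -0.13 and 0.24. The brightest of these were JCHAIN, DCN and SPP1, at -0.67, -0.43 and 0.57.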
